A study of Homo sapiens with 18 samples.

Results

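The genes of chromosomal DNA replication and of the passage from G1 into S phase were followed in RNAseq of SW620 cells, an epithelial human colon cancer line. The set held 39 gene symbols of the 26485 in the count table. Of these, 38 were listed for their function in replication or in its control, and ZNF367, a zinc finger gene of S phase, was selected on measured values of these libraries, because heat had moved it in opposite directions in the siRNA arms. The 38 were listed with earlier results of these data known. All 39 passed the filter on low counts (CPM, counts scaled to library size, above 1 in at least 3 libraries) that left 12832 genes for testing. Cells received either siRNA that silences Lonp1, a protease of the mitochondrial matrix (siLonp1), or a scramble siRNA as its control. The study's methods name more than 1 siRNA against Lonp1, and which of them was used for RNAseq is not given. Ctrl cells stayed at 37 °C, HS cells spent 1 h at 42 °C, and HS+REC cells had the same hour at 42 °C followed by 1 h of recovery at 37 °C. Each of the 6 groups had 3 libraries, which the study's methods describe as independent biological replicates. Every group had received an siRNA, no untransfected cells were analysed here, and all libraries come from 1 cell line.

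Replication starts in G1, when ORC, CDC6 and CDT1 load the MCM2-7 helicase onto origins, a step called licensing. In S phase the loaded helicase is activated by CDC45, the GINS complex and MCM10, and polymerases, the PCNA clamp and its RFC loader then copy the strands. Most of these genes are transcribed in late G1 by E2F factors, which cyclin E and its kinase help to release from the RB proteins, whereas E2F7 and E2F8 repress the same promoters later in S phase.

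Because the genes share E2F control, promoters were read for the words TTTCCCGC, TTTGGCGC, TTTCGCGC and TTTGCCGC on both strands, in the 250 bases before each annotated start (RefSeq, GRCh38.p14). Matches on opposite strands can overlap. Of the 39 genes, 34 were matched, with 41 promoters in all, and MCM4, MCM5, GINS4, E2F8 and CCNE2 were not. A word was found in 15 of the 41 (36.6%), against 979 of 35116 promoters of all genes (2.79%). Shown are 5 windows that differ in the words they hold, with the words in capitals, 5′ to 3′ on the strand of the gene. ZNF367 lies at chr9:96418371-96418620 on the minus strand, CDT1 at chr16:88803539-88803788 on the plus strand, E2F1 at chr20:33686386-33686635 on the minus strand, MCM6 at chr2:135876444-135876693 on the minus strand and CCNE1 at chr19:29811741-29811990 on the plus strand. None of the 5 windows overlaps an exon of the GENCODE annotation.
ZNF367: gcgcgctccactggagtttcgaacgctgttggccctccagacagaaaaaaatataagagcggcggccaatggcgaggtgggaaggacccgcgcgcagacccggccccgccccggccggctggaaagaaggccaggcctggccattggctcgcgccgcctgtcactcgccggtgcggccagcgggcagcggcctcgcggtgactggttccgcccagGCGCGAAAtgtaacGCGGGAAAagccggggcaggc
CDT1: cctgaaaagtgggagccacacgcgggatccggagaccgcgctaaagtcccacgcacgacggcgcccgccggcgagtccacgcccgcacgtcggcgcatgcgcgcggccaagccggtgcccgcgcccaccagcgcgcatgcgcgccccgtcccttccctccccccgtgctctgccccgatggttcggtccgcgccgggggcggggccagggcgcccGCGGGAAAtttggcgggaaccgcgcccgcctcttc
E2F1: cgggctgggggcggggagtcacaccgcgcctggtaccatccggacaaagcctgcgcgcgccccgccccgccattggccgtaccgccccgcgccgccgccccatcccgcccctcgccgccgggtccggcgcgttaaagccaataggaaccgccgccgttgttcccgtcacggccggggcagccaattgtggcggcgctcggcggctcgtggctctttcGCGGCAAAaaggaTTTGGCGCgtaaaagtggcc
MCM6: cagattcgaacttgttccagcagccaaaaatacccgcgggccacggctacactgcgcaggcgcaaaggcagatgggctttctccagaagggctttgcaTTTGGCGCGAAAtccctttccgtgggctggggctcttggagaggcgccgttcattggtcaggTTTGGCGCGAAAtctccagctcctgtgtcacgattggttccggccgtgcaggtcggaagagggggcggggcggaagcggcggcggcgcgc
CCNE1: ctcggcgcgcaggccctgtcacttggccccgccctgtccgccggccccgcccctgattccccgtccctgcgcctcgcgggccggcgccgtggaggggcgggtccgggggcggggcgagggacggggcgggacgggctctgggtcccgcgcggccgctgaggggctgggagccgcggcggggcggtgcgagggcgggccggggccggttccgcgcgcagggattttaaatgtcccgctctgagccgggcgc
The ZNF367 and E2F1 windows held 2 words each, close to the start. CDT1 held 1, and MCM6 held 4, as 2 pairs that overlap on opposite strands. CCNE1 held none, which says only that these letters are not in this window.

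**Figure D1:**
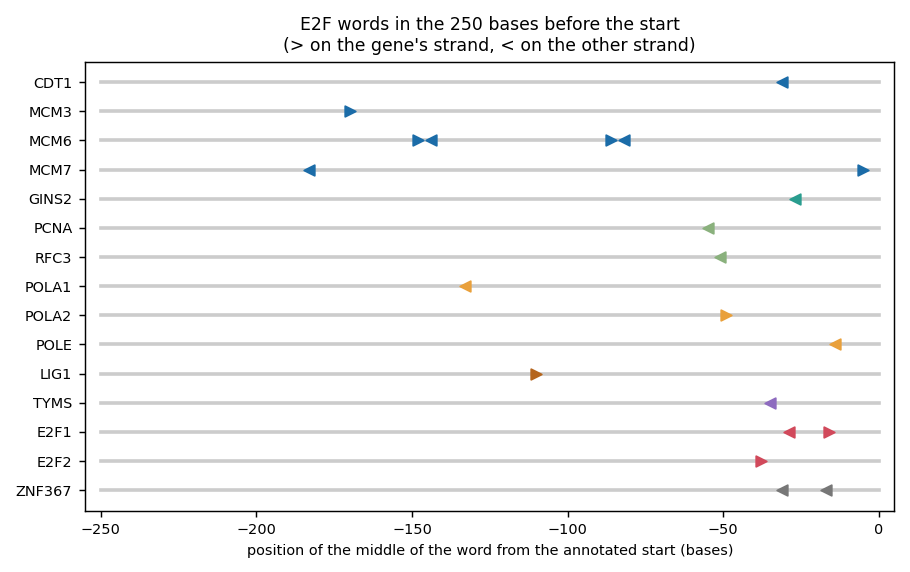
Position of E2F words in the 250 bases before the annotated start of the 15 genes that held one, with the x axis in bases from the start. Each arrowhead is a word and points right for the strand of the gene and left for the other strand, with MCM6 showing the 2 overlapping pairs.

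The word CCAAT, the site of NF-Y, was found in 25 of the 41 promoters (61%), against 32% of all promoters. TTTGAA, the CHR element of genes that peak in G2/M, was in 1 of 41 (2.44%), against 13.3%. The heat shock element (alternating GAA and TTC units on either strand), the site of HSF1, was in 0 of 41, against 0.441% of all promoters. These matches describe sequence and are not measurements of binding.

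Libraries held between 30815860 and 47279297 counts. LONP1 was at 223, 225 and 215 CPM in Ctrl scramble and at 19.4, 22.5 and 19.5 CPM in Ctrl siLonp1. Against scramble, 9.26% of LONP1 remained in Ctrl, with 5.48% left in HS and 12.4% left in HS+REC. Exons of RPL36 on the other strand overlap LONP1, and the strand setting of the counting is not stated. Of 9 epithelial colon markers, 7 were expressed, among them EPCAM, KRT8 and KRT18. LGALS4 stayed below 1 CPM, and CDX1 was at 0 in every library. Of 12 markers of immune, stromal, endothelial, liver and neural cells, MBP, COL1A1 and LYZ made up most of the summed level, and PTPRC, CD3E, COL1A2, DCN, ALB and PECAM1 stayed below 1 CPM.

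The 39 genes took between 0.581% and 0.605% of the counts in the 3 Ctrl scramble libraries and between 0.487% and 0.505% in the Ctrl siLonp1 libraries. In HS the range was 0.547% to 0.554% with scramble and 0.393% to 0.412% with siLonp1. In HS+REC it was 0.51% to 0.532% with scramble and 0.382% to 0.41% with siLonp1. The siLonp1 libraries thus lay below the scramble libraries in each condition, with no overlap. In CPM without TMM scaling, the 12 markers of other cells summed to 50.7 to 53.9 CPM in Ctrl scramble and 42.5 to 44.4 CPM in Ctrl siLonp1, and to 55.2 to 58.9 CPM and 37.3 to 46.9 CPM in the HS arms, with no overlap. In the HS+REC arms the ranges of 106 to 114 CPM and 91 to 109 CPM overlapped. Of the 6 of these that were tested, 1 rose and 1 fell with siLonp1 in Ctrl, 2 and 2 in HS, and 2 and 1 in HS+REC. These are shares of 16.7% to 33.3%, not far from those of all genes, of which 26.3%, 28.1% and 26.8% rose and 22.9%, 26.7% and 27.3% fell. LYZ, the gene of lysozyme, fell in all 3 conditions (-1.52, -1.41 and -1.32), and PDGFRB, a receptor of stromal cells, rose in all 3 (1.17, 1.03 and 1.12). The 9 epithelial markers summed to 9776 to 10218 CPM in Ctrl scramble and 10398 to 10925 CPM in Ctrl siLonp1, to 10265 to 10605 CPM and 11210.2 to 11688 CPM in HS, and to 8683 to 10073 CPM and 8325 to 10138 CPM in HS+REC, where they overlapped. Of the 7 expressed, 2 rose and 1 fell with siLonp1 in Ctrl, 5 and 1 in HS, and 1 and 2 in HS+REC. The shares that rose were 28.6%, 71.4% and 14.3%, beside 26.3%, 28.1% and 26.8% of all genes. Those that fell were 14.3%, 14.3% and 28.6%, beside 22.9%, 26.7% and 27.3%. With 7 genes, the differences from all genes were not tested. The marker that fell each time was CDX2, an intestinal transcription factor (-0.90, -1.38 and -1.07). The part of these shifts in the results, and of the higher sum of other markers in HS+REC, was not tested. In bulk RNA, fewer cells in S phase and less of these mRNAs in each cell cannot be told apart.

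Silencing of Lonp1 was compared with scramble in each of the 3 conditions, which use separate libraries. In Ctrl, 26 of the 38 listed genes fell and 3 rose at a Benjamini-Hochberg FDR of 0.05 in edgeR's quasi-likelihood test, at any fold change. Among all genes tested, 22.9% fell and 26.3% rose. In HS, 31 fell and 1 rose, with 26.7% and 28.1% of all genes doing so. In HS+REC, 29 fell and 1 rose, with 27.3% and 26.8% of all genes. The median log2 fold change of the 38 genes was -0.29 in Ctrl, against -0.37 with HS and -0.38 with HS+REC, beside 0.0092, 0.0011 and -0.0028 for all genes tested. The declines were small. In HS, CDT1 was the 1 member of the 38 that fell past a fold change of 2, beside 1.61% of all genes. Its fold change was under 2 in 4 of 6 fits with a library left out, those without HS siLonp1 replicate 1 or 3 and those without HS scramble replicate 1 or 2.

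The same genes recurred. Of the 38, 26 (68.4%) fell in all 3 conditions, against 2058 of 12832 genes tested (16%). CCNE1 was the 1 member that rose in all 3, against 18.1% of genes tested. ORC6, MCM6, RRM2, TYMS, E2F8, CCNE1 and CCNE2 (18.4% of the 38) fell in none, against 64.1% of genes tested. CDC6, GINS3, PCNA, FEN1 and E2F2, 5 of the 38 (13.2%), fell in HS and did not fall at the FDR limit in Ctrl, as did 8.75% of all genes, a nearby share. Among the genes with a promoter in the table, an E2F word was held by 10 of the 23 that fell in all 3 conditions and by 4 of the 10 others.

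**Figure D2:**
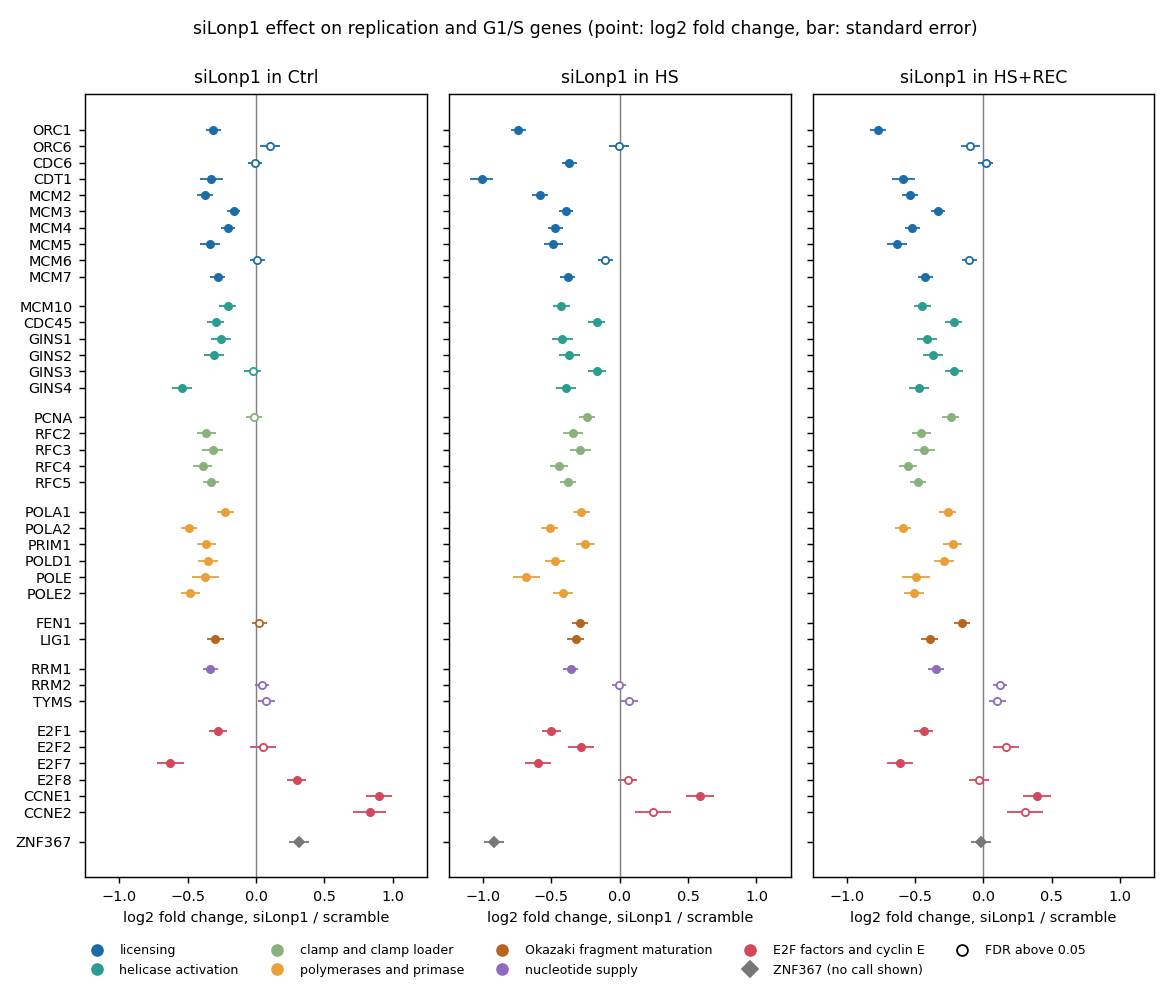
log2 fold change of siLonp1 against scramble (x axis) for each gene (rows, ordered and coloured by role) in Ctrl, HS and HS+REC, with bars for the standard error, filled circles for an FDR of at most 0.05 and diamonds for ZNF367, for which no call is drawn. Most circles lie left of 0 in all 3 panels, and CCNE1 lies right of 0 in all 3.

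Of the 10 licensing genes, 7 fell in Ctrl, 8 after HS and 7 after HS+REC, beside 22.9%, 26.7% and 27.3% of all genes tested. ORC1 encodes the largest subunit of the origin recognition complex and is the subunit made anew in each G1. It was at 60.2, 61.7 and 62.8 CPM in Ctrl scramble and 49.8, 49.6 and 49.4 CPM in Ctrl siLonp1 (log2 fold change -0.31 ± 0.057 SE, FDR = 8.82e-05). In HS it was at 71, 71.7 and 75.7 CPM with scramble and 42.1, 41.9 and 46.6 CPM with siLonp1 (log2 fold change -0.74 ± 0.057 SE, FDR = 3.72e-10). After recovery the levels were 68.2, 67.4 and 67.1 CPM and 39.5, 37.7 and 41.7 CPM (log2 fold change -0.77 ± 0.057 SE, FDR = 1.84e-10). The siRNA arms did not overlap in any condition, and the gap was wider after heat than in Ctrl. CDT1, the loader that brings the MCM helicase to ORC, was at 97.3, 99.8 and 97.9 CPM in Ctrl scramble and 81.3, 76.3 and 77.4 CPM in Ctrl siLonp1 (log2 fold change -0.33 ± 0.083 SE, FDR = 0.00232). In HS its level was 116, 121 and 99.6 CPM with scramble and 54.9, 57.3 and 54.9 CPM with siLonp1 (log2 fold change -1.01 ± 0.084 SE, FDR = 1.58e-09). After recovery it was at 102, 93.3 and 114 CPM with scramble and 69.9, 59 and 76.9 CPM with siLonp1 (log2 fold change -0.59 ± 0.083 SE, FDR = 3.43e-06). Each scramble library lay above each siLonp1 library of its condition.

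The 6 MCM subunits form 1 ring, yet 5 of them fell in all 3 conditions and MCM6 in none. MCM2, MCM3, MCM4, MCM5 and MCM7 had log2 fold changes of -0.16 to -0.37 in Ctrl. In HS these were -0.38 to -0.58, and in HS+REC -0.33 to -0.63. MCM4 was at 488, 489 and 505 CPM in Ctrl scramble and 419, 425 and 441 CPM in Ctrl siLonp1, and at 459.9, 443 and 435 CPM and 295, 310.4 and 328 CPM in HS+REC. MCM5 went from 198, 167 and 195 CPM with scramble to 126, 109 and 126 CPM with siLonp1 in HS+REC (log2 fold change -0.63 ± 0.071 SE, FDR = 1.27e-07), with no overlap. MCM6, whose promoter held the 4 words shown above, was at 215, 216 and 211 CPM in Ctrl scramble and 217, 201 and 229 CPM in Ctrl siLonp1, and the ranges overlapped. The 95% interval of its log2 fold change was -0.10 to 0.12 in Ctrl, and in heated cells it was -0.22 to 0.0068 for HS and -0.22 to 0.0098 for HS+REC.

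CDC6, the ATPase that works with CDT1, passed the test in HS alone among the 3 conditions. In Ctrl it was at 129, 129 and 130.5 CPM with scramble and 128, 125 and 134 CPM with siLonp1, which overlapped. With heat it was at 118, 108 and 120.1 CPM and 90.3, 86.2 and 91.4 CPM, which did not (log2 fold change -0.37 ± 0.055 SE, FDR = 6.97e-06). In HS+REC it was at 154, 163 and 153 CPM and 158, 164 and 154 CPM, and again overlapped. ORC6, the smallest ORC subunit, did not pass in any condition, with log2 fold changes of 0.10, -0.004 and -0.10.

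Of the 6 genes of helicase activation, 5 fell in Ctrl and all 6 in HS and in HS+REC, where the shares of all genes were again 22.9%, 26.7% and 27.3%. The same shares stand behind the counts of the roles that follow. GINS4, a subunit of the 4-part GINS complex, changed most in Ctrl, from 30.1, 29.4 and 31.4 CPM with scramble to 20.7, 19.4 and 22.2 CPM with siLonp1 (log2 fold change -0.54 ± 0.073 SE, FDR = 2.11e-06). MCM10, which helps the helicase to separate the strands, had a log2 fold change of -0.21 in Ctrl, a call that was lost without Ctrl scramble replicate 3, and of -0.43 and -0.45 in HS and HS+REC. In HS the calls of CDC45 and GINS3 (-0.17) were lost in 3 and 4 of 6 fits with a library left out, CDC45 without HS siLonp1 replicate 2 or either of HS scramble replicates 1 and 3, and GINS3 without replicate 2 or 3 of either HS arm. Over the 3 conditions, CDC45 had values of -0.30, -0.17 and -0.22. GINS3 was the member of this group that did not pass in Ctrl (-0.025).

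The 5 genes of the sliding clamp and its loader fell in HS and in HS+REC, and 4 of them in Ctrl. The loader subunits RFC2, RFC3, RFC4 and RFC5 fell in all 3 conditions. Of these RFC4 had the largest change in HS+REC, from 81.2, 80.9 and 78.3 CPM with scramble to 52.5, 54.2 and 57.4 CPM with siLonp1 (log2 fold change -0.55 ± 0.068 SE, FDR = 4.97e-07), although exons of EIF4A2 on the other strand overlap it and the strand setting of the counting is not stated. PCNA, the clamp that tethers polymerases to DNA, was at 439, 452 and 468 CPM in Ctrl scramble and 443, 451 and 453 CPM in Ctrl siLonp1. In HS it was at 355, 332 and 377 CPM with scramble and 309.6, 286 and 307 CPM with siLonp1 (log2 fold change -0.24 ± 0.06 SE, FDR = 0.00188). The arms overlapped in Ctrl and were separate in HS.

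All 6 polymerase and primase genes fell in all 3 conditions. POLA2, the B subunit of polymerase alpha, which lays the first bases with primase, was at 75.9, 76 and 74.9 CPM in Ctrl scramble and 54.2, 50.1 and 57.4 CPM in Ctrl siLonp1 (log2 fold change -0.49 ± 0.06 SE, FDR = 5.95e-07). Recovered cells had 67.6, 66.6 and 70.2 CPM and 46.4, 46.4 and 43.2 CPM (log2 fold change -0.59 ± 0.06 SE, FDR = 3.35e-08). POLE, the catalytic subunit of the leading strand polymerase, was at 135, 147 and 119 CPM in HS scramble and 72.7, 89.9 and 87.7 CPM in HS siLonp1 (log2 fold change -0.68 ± 0.1 SE, FDR = 6.48e-06). The groups did not overlap in these comparisons. POLE2, POLD1, POLA1 and PRIM1 had log2 fold changes in HS of -0.42, -0.47, -0.28 and -0.25. The PRIM1 call in HS+REC was lost without HS+REC scramble replicate 2, and the exons of PRIM1 overlap those of NACA on the same strand.

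LIG1, which seals Okazaki fragments, fell in all 3 conditions, with log2 fold changes of -0.30, -0.32 and -0.39. FEN1, the flap nuclease that trims the fragments, was at 214, 223 and 214 CPM in Ctrl scramble and 227, 214 and 221 CPM in Ctrl siLonp1. In HS it was at 177, 176 and 173 CPM with scramble and 148, 136 and 146 CPM with siLonp1 (log2 fold change -0.29 ± 0.058 SE, FDR = 0.000212). In HS+REC, where the groups overlapped, the call for FEN1 (log2 fold change -0.15 ± 0.058 SE, FDR = 0.0278) was lost without HS+REC scramble replicate 1 or 3 and without HS+REC siLonp1 replicate 1 or 2. FEN1 shares exon sequence with FADS2 on the same strand, so reads of the pair may not be fully separated.

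The genes of nucleotide supply divided. RRM1, the large subunit of ribonucleotide reductase, was at 334, 334 and 339 CPM in Ctrl scramble and 266, 247 and 286 CPM in Ctrl siLonp1 (log2 fold change -0.33 ± 0.056 SE, FDR = 3.34e-05), and fell as well in HS (-0.36) and HS+REC (-0.35). RRM2, the small subunit that limits the enzyme in cycling cells, was at 254, 261 and 266 CPM and 266, 258 and 280.1 CPM in the same Ctrl groups, which overlapped. Its 95% interval was -0.061 to 0.15 in Ctrl, against -0.11 to 0.10 with HS and 0.014 to 0.23 with HS+REC. TYMS, which makes thymidylate, had group means between 126 and 139 CPM over the 6 groups and did not pass the test in any of the 11 comparisons.

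E2F factors and cyclin E were the role group in which members moved apart. E2F1, an activator, fell in all 3 conditions (-0.28, -0.50 and -0.44). E2F7, a repressor, was at 41.5, 39.7 and 45.4 CPM in Ctrl scramble and 27.6, 28.6 and 25.8 CPM in Ctrl siLonp1 (log2 fold change -0.63 ± 0.097 SE, FDR = 1.36e-05), and had log2 fold changes of -0.59 in HS and -0.61 in HS+REC. E2F8, the other repressor, rose in Ctrl from 12.1, 13.1 and 13.1 CPM to 15.6, 15.3 and 16.1 CPM (log2 fold change 0.30 ± 0.071 SE, FDR = 0.00141), and its siRNA arms overlapped in HS and HS+REC. E2F2 fell in HS (log2 fold change -0.28 ± 0.093 SE, FDR = 0.0131), a call that did not pass without HS siLonp1 replicate 3 or HS scramble replicate 1.

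CCNE1 and CCNE2, the cyclins that start S phase with CDK2, were higher with siLonp1 in Ctrl. CCNE1 was at 5.42, 4.82 and 4.42 CPM in Ctrl scramble and 8.4, 9.51 and 9.45 CPM in Ctrl siLonp1 (log2 fold change 0.90 ± 0.095 SE, FDR = 6.21e-08). In HS it was at 4.01, 3.82 and 3.51 CPM with scramble and 5.58, 6.02 and 5.51 CPM with siLonp1 (log2 fold change 0.59 ± 0.1 SE, FDR = 4.88e-05). In HS+REC it was at 4, 3.76 and 3.9 CPM and 5.33, 4.7 and 5.24 CPM (log2 fold change 0.39 ± 0.1 SE, FDR = 0.0027). The siLonp1 libraries of CCNE1 lay above the scramble libraries in each condition. CCNE2 was at 26.4, 25.6 and 23.6 CPM in Ctrl scramble and 42.7, 45.1 and 46.9 CPM in Ctrl siLonp1 (log2 fold change 0.83 ± 0.12 SE, FDR = 7.32e-06). After heat the CCNE2 arms overlapped, and the log2 fold change was 0.24 in HS (FDR = 0.13) and 0.30 in HS+REC (FDR = 0.0553), the second of which passed without HS+REC siLonp1 replicate 1. CCNE2 exons overlap those of INTS8 on the other strand.

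**Figure D3:**
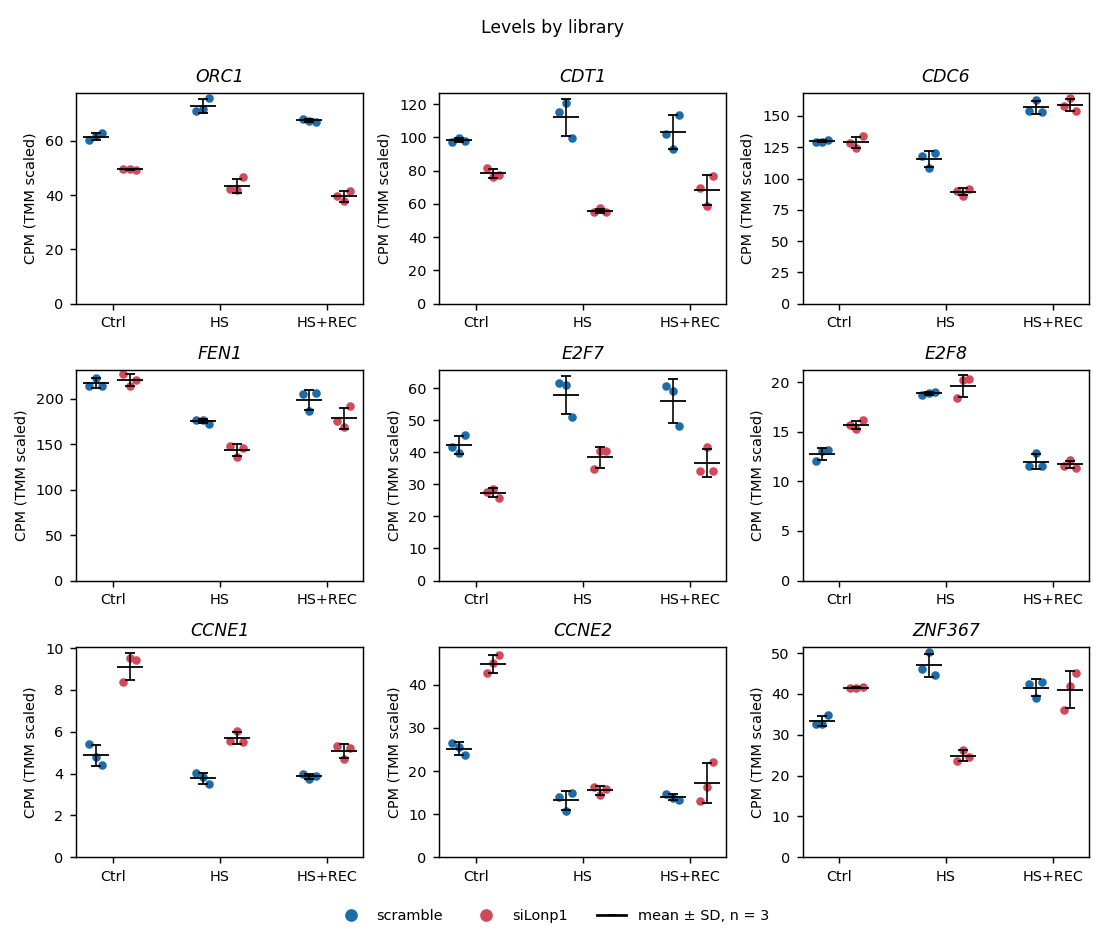
Level of 9 genes in each of the 18 libraries, in CPM after TMM scaling (y axis, from 0), by condition (x axis) and siRNA (colour), with bars for the mean ± SD of 3 libraries. ORC1 and CDT1 lie lower with siLonp1 in each condition, CCNE1 lies higher in each, and ZNF367 in HS has its siLonp1 libraries below and its scramble libraries above their Ctrl groups.

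The HS effect was taken against Ctrl within each siRNA arm. With scramble, 13 of the 38 genes fell and 5 rose, beside 17.3% and 18.6% of all genes, and the median log2 fold change was -0.048. The 13 became 8 without Ctrl scramble replicate 3. With siLonp1, 19 fell and 2 rose, beside 22.1% and 20.2% of all genes, with a median of -0.19. Each arm has its own Ctrl libraries. The members that fell in both arms were CDC6, MCM3, GINS1, GINS2, PCNA, RFC4, PRIM1, POLE2, FEN1, RRM2, CCNE1 and CCNE2, and E2F7 and E2F8 rose in both. These are 12 of 38 (31.6%) and 2 of 38 (5.26%), against 13% and 14.5% of all genes tested. With scramble, the calls of GINS2 and RFC4 were lost without Ctrl scramble replicate 2 or 3 or HS scramble replicate 1 or 2.

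Cyclin E2 had the largest HS effect of the 38 genes in both arms. With scramble, CCNE2 was at 26.4, 25.6 and 23.6 CPM in Ctrl and 14, 10.6 and 15 CPM in HS (log2 fold change -0.94 ± 0.13 SE, FDR = 4.04e-06). With siLonp1 it was at 42.7, 45.1 and 46.9 CPM in Ctrl and 16.4, 14.4 and 15.9 CPM in HS (log2 fold change -1.53 ± 0.13 SE, FDR = 9.53e-10). With siLonp1 it was the 1 member of the 38 that fell past a fold change of 2, beside 1.15% of all genes. CCNE1 fell by less, with log2 fold changes of -0.36 with scramble, a call lost without Ctrl scramble replicate 1, and -0.68 with siLonp1. The interaction of siLonp1 and HS, the difference between the HS effects of the arms, was -0.59 for CCNE2 and did not pass (FDR = 0.0965), although it passed without HS scramble replicate 2.

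The repressors E2F7 and E2F8 rose with heat. E2F8 was at 12.1, 13.1 and 13.1 CPM in Ctrl scramble and 18.7, 18.9 and 19 CPM in HS scramble (log2 fold change 0.56 ± 0.07 SE, FDR = 8.79e-07), and rose from 15.6, 15.3 and 16.1 CPM to 18.3, 20.2 and 20.3 CPM with siLonp1 (log2 fold change 0.32 ± 0.07 SE, FDR = 0.000546). E2F7 went from 41.5, 39.7 and 45.4 CPM to 61.5, 61 and 51.1 CPM with scramble (log2 fold change 0.46 ± 0.094 SE, FDR = 0.000511) and had a log2 fold change of 0.49 with siLonp1. HS libraries of both genes lay above the Ctrl libraries of their arm. E2F2 rose with scramble (log2 fold change 0.36 ± 0.093 SE, FDR = 0.00399), where it was at 7.66, 7.89 and 9.59 CPM in Ctrl and 11.2, 10.8 and 10.1 CPM in HS, and its interval with siLonp1 was -0.17 to 0.22.

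Among the fork genes, FEN1 and PCNA fell most with siLonp1 (-0.62 and -0.58) and fell with scramble too (-0.31 and -0.35). GINS1 was at 69.7, 76.1 and 77.3 CPM in Ctrl scramble and 55.5, 50.3 and 62.6 CPM in HS scramble (log2 fold change -0.41 ± 0.074 SE, FDR = 0.000132), and had a value of -0.57 with siLonp1. Exons of NINL on the other strand overlap GINS1. Of the 6 polymerase and primase genes, PRIM1 and POLE2 fell in both arms (33.3%) and the other 4 passed in neither, where 17.3% of all genes fell with scramble, 22.1% with siLonp1 and 13% in both. With siLonp1, the PRIM1 call was lost, and POLE (-0.24, FDR = 0.0638) passed, without Ctrl siLonp1 replicate 3 or HS siLonp1 replicate 2. Of the 10 licensing genes 7 fell with siLonp1, beside 22.1% of all genes. With scramble 2 fell (CDC6 and MCM3) and 2 rose (ORC1 and ORC6), shares of 20% each that are near the 17.3% and 18.6% of all genes. The ORC6 call was lost without Ctrl scramble replicate 1, and the MCM3 call in 4 of 6 fits with a library left out, those without Ctrl scramble replicate 1 or 3 or HS scramble replicate 2 or 3.

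The interaction of siLonp1 and HS was at or below the FDR limit for 4 of the 38 genes, each lower with siLonp1, beside 1.39% of all genes in that direction. In the other direction it was 0 of 38 in edgeR, near the 0.475% of all genes. It was 0 of 38 in DESeq2 too, where 123 of all genes tested were higher. At an unadjusted p under 0.05 it was also 0 of 38, a limit at which all genes were not counted. The 4 genes were CDT1, ORC1, CDC6 and FEN1, of which 3 are licensing genes. Their count was 2 without HS scramble replicate 1. For 31 of the 38 genes the interaction was below 0, with a median of -0.12, beside -0.0044 for all genes tested. LONP1 itself had an HS effect of -0.80 with siLonp1 and -0.044 with scramble. The part of this deeper silencing in HS in the interactions was not tested.

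CDT1 (chr16:88803789-88809258 in hg38, GENCODE v44, plus strand) had the largest interaction, at a log2 value of -0.68 ± 0.12 SE (FDR = 0.00298). Its HS effect was 0.19 with scramble, which did not pass (FDR = 0.0782), and -0.49 with siLonp1. Without HS scramble replicate 3 the first was 0.29 and passed. ORC1 (chr1:52372829-52404423, minus strand) rose with scramble (log2 fold change 0.24 ± 0.056 SE, FDR = 0.00159) and fell with siLonp1 (log2 fold change -0.19 ± 0.057 SE, FDR = 0.0104), and its interaction was -0.43 ± 0.08 SE (FDR = 0.00537). The fall with siLonp1 did not pass without HS siLonp1 replicate 1 or 2, and the interaction of ORC1 and of CDT1 passed without any 1 of the 12 libraries. CDC6 (chr17:40287879-40304657, plus strand) fell in both arms, by 0.17 with scramble and by 0.53 with siLonp1 on the log2 scale. The fall with scramble did not pass without Ctrl scramble replicate 3 or HS scramble replicate 2. The CDC6 interaction was -0.36 ± 0.077 SE (FDR = 0.0155), and did not pass without HS scramble replicate 1. The FEN1 interaction was -0.32 ± 0.082 SE (FDR = 0.0473), close to the limit, and passed in 1 of 12 fits with a library left out, that without HS scramble replicate 3. It did not pass when the replicate number was fitted as a block.

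**Figure D4:**
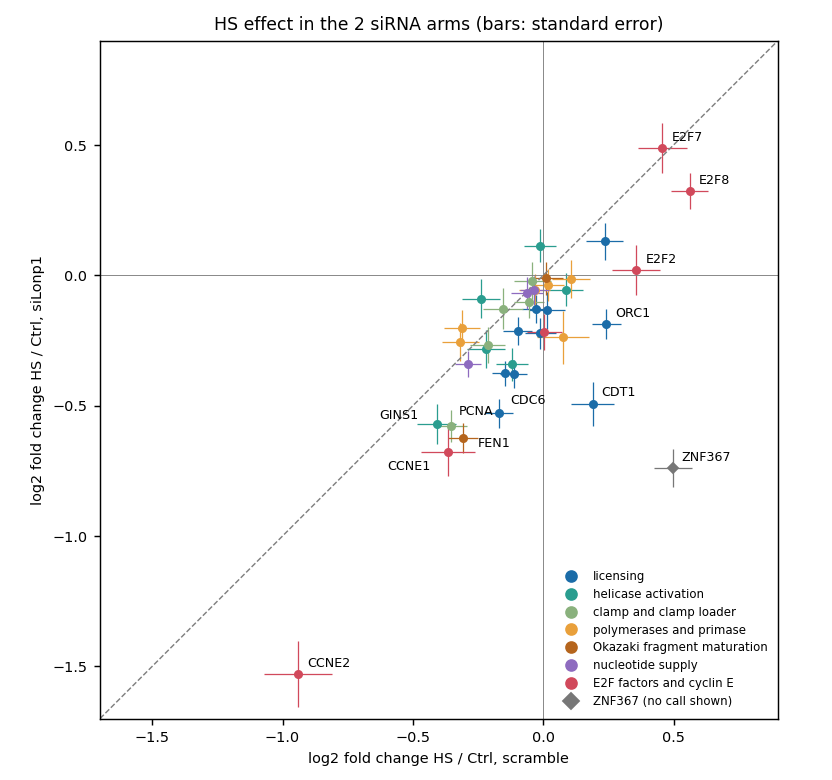
HS effect on each gene as log2 fold change against Ctrl, with scramble (x axis) and with siLonp1 (y axis), coloured by role, with bars for the standard error and a dashed line where the effects are equal. CDT1, ORC1 and ZNF367 are among the genes right of 0 on the x axis and below 0 on the y axis, and CCNE2 lies lowest on both.

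After 1 h of recovery at 37 °C, HS+REC was set against Ctrl and against HS, which share libraries. Against Ctrl, 15 of the 38 genes fell and 3 rose with scramble, beside 20.5% and 21.8% of all genes. The 15 became 6 without Ctrl scramble replicate 3, and 9 without Ctrl scramble replicate 2 or without HS+REC scramble replicate 1. With siLonp1, 25 fell and 2 rose, beside 26.6% and 24.6% of all genes. Against HS, 3 fell and 3 rose with scramble, beside 12.7% and 14.2% of all genes. Scaled by library size alone, 7 fell and 1 rose with scramble, where 2279 and 1297 of all genes tested did so. With siLonp1, 7 fell and 4 rose against HS, beside 15.6% and 16.3%. The 7 became 4 without HS siLonp1 replicate 1 or 3 or HS+REC siLonp1 replicate 2, and the 4 became 2 without HS+REC siLonp1 replicate 3.

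CDC6 rose above its HS level in both arms. With scramble it was at 118, 108 and 120.1 CPM in HS and 154, 163 and 153 CPM in HS+REC (log2 fold change 0.44 ± 0.054 SE, FDR = 1.13e-06). With siLonp1 it was at 90.3, 86.2 and 91.4 CPM in HS and 158, 164 and 154 CPM in HS+REC (log2 fold change 0.83 ± 0.055 SE, FDR = 4.91e-11). The HS+REC libraries of CDC6 were above the Ctrl libraries of their arm too, with log2 fold changes of 0.27 and 0.30. FEN1 rose against HS as well, by 0.32 with siLonp1 (FDR = 0.000132) and by 0.18 with scramble, the second of which did not pass without HS+REC scramble replicate 1 or 3 or HS scramble replicate 3. CDT1 rose against HS with siLonp1 (log2 fold change 0.30 ± 0.084 SE, FDR = 0.00775), a call lost without HS+REC siLonp1 replicate 3.

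E2F8 went the other way. It was at 18.7, 18.9 and 19 CPM in HS scramble and 11.6, 12.9 and 11.5 CPM in HS+REC scramble (log2 fold change -0.65 ± 0.071 SE, FDR = 1.63e-07). With siLonp1 it was at 18.3, 20.2 and 20.3 CPM and 11.6, 12.1 and 11.4 CPM (log2 fold change -0.75 ± 0.071 SE, FDR = 1.45e-08). Against Ctrl, E2F8 in HS+REC did not pass with scramble (-0.092, FDR = 0.322) and was lower with siLonp1 (-0.42, FDR = 2.87e-05), and the interaction with HS+REC did not pass (-0.33, FDR = 0.11). E2F7 stayed above Ctrl, with log2 fold changes of 0.41 and 0.42. E2F2 fell against HS with scramble, from 11.2, 10.8 and 10.1 CPM to 6.76, 6.97 and 7.06 CPM (log2 fold change -0.63 ± 0.094 SE, FDR = 1.63e-05).

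RRM2 declined in HS and again in HS+REC in both arms. Its levels with scramble were 254, 261 and 266 CPM in Ctrl, 218, 201 and 219.9 CPM in HS and 163, 168 and 163 CPM in HS+REC, and no library of 1 condition overlapped another. The HS+REC effect on RRM2 was -0.66 with scramble (FDR = 3.27e-10) and -0.58 with siLonp1 (FDR = 1.9e-09). CCNE2 stayed low, at 14.7, 13.8 and 13.3 CPM in HS+REC scramble and 13.1, 16.3 and 22.2 CPM in HS+REC siLonp1, with effects against Ctrl of -0.86 and -1.38. The second was past a fold change of 2, and 1.2% of all genes tested fell as far. PCNA stayed low as well, with effects of -0.34 and -0.57.

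The interaction of siLonp1 and HS+REC passed for 2 of the 38 genes, both licensing genes and both lower with siLonp1, beside 0.896% of all genes in that direction. In the other direction it was again 0 of 38 in edgeR, near the 0.686% of all genes. It was 0 of 38 in DESeq2 too, where 155 of all genes tested were higher. At an unadjusted p under 0.05 it was also 0 of 38, a limit at which all genes were not counted. ORC1 had an interaction of -0.46 ± 0.08 SE (FDR = 0.00397), with HS+REC effects of 0.13 with scramble and -0.32 with siLonp1. MCM4 had an interaction of -0.31 ± 0.074 SE (FDR = 0.0293). The MCM4 call was lost in 9 of 12 fits with a library left out and remained without HS+REC scramble replicate 2 or 3 or HS+REC siLonp1 replicate 3.

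ZNF367 (chr9:96385941-96418370, minus strand), a factor whose own promoter holds 2 E2F words, was chosen for its heat response, so its Ctrl and HS values are a description with no test. It was at 32.7, 32.6 and 34.7 CPM in Ctrl scramble and 46.2, 50.2 and 44.6 CPM in HS scramble. With siLonp1 it was at 41.4, 41.5 and 41.6 CPM in Ctrl and 23.7, 26.2 and 24.7 CPM in HS. The HS libraries lay above Ctrl with scramble and below Ctrl with siLonp1, with no overlap in either arm. The fitted HS effects were 0.50 and -0.74, which differ by -1.24 on the log2 scale. In HS+REC, whose libraries the choice did not use, ZNF367 was at 42.4, 39.1 and 43 CPM with scramble and 36.1, 42 and 45 CPM with siLonp1. The arms overlapped there, and the siLonp1 effect was -0.016 (95% interval -0.17 to 0.13, FDR = 0.867). Among the 38 other genes, ORC1 was the 1 member that passed the test in both arms with opposite directions in HS, as did 14 of 12832 genes tested (0.109%).

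The other genes of the pathway were read from lists that had been written with earlier results known. Of 49 other replication genes (ORC subunits, CDC7 and DBF4, RPA, chromatin assembly and fork proteins), 26 fell and 9 rose with siLonp1 in Ctrl, 30 and 4 in HS, and 34 and 5 in HS+REC. The shares that fell were 53.1%, 61.2% and 69.4%, beside 22.9%, 26.7% and 27.3% of all genes. The shares that rose were 18.4%, 8.16% and 10.2%, beside 26.3%, 28.1% and 26.8%. Their median log2 fold change was -0.19, -0.25 and -0.27 in these conditions. CDC7, the kinase that fires licensed origins, was at 39.7, 37.2 and 40.3 CPM in Ctrl scramble and 20.9, 25.3 and 24.3 CPM in Ctrl siLonp1 (log2 fold change -0.73 ± 0.077 SE, FDR = 5.44e-08). DUT, which removes dUTP from the nucleotide pool, had log2 fold changes of -0.59 in Ctrl and -0.69 in HS. In HS, 9 of the 49 (18.4%) fell and 7 (14.3%) rose with scramble, shares near the 17.3% and 18.6% of all genes, and 16 (32.7%) fell and 6 (12.2%) rose with siLonp1, beside 22.1% and 20.2%. The interaction with HS passed for UHRF1 (-0.46, FDR = 0.0478) and POLD3 (-0.44, FDR = 0.00929), of which UHRF1 was lost in 10 of 12 fits with a library left out, all but those without replicate 3 of either HS arm.

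The 29 tested regulators of the G1/S switch (of 30 listed) were mixed with siLonp1. In Ctrl 11 rose and 9 fell, in HS 5 rose and 11 fell, and in HS+REC 8 rose and 12 fell. Shares of all genes in the same order were 26.3% and 22.9%, 28.1% and 26.7%, and 26.8% and 27.3%. CDKN1A, which encodes the CDK inhibitor p21, was at 4.67, 4.8 and 4.88 CPM in Ctrl scramble and 9.21, 7.73 and 8.71 CPM in Ctrl siLonp1 (log2 fold change 0.84 ± 0.13 SE, FDR = 1.31e-05). It rose with HS to 14.4, 14.3 and 17 CPM with scramble (log2 fold change 1.67 ± 0.12 SE, FDR = 1.99e-10) and to 23.8, 23 and 20.6 CPM with siLonp1 (log2 fold change 1.40 ± 0.12 SE, FDR = 8.53e-10). HS libraries of CDKN1A lay above the Ctrl libraries in both arms. CDC25A, the phosphatase that activates CDK2, was at 99.1, 92.5 and 98.8 CPM in Ctrl siLonp1 and 43.8, 47.7 and 46.2 CPM in HS siLonp1 (log2 fold change -1.08 ± 0.069 SE, FDR = 9.44e-12). With scramble it was at 111, 113 and 110.3 CPM in Ctrl and 97.4, 97 and 92.8 CPM in HS (-0.22), so the interaction was -0.86 (FDR = 2.04e-05). CDKN1B, another CDK inhibitor, rose with HS with scramble (log2 fold change 0.93 ± 0.062 SE, FDR = 2.58e-11) and was lower with siLonp1 in HS (-0.60).

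The 30 G2/M genes, which are expressed later in the cycle, gave the comparison within the cell cycle. With siLonp1, 12 fell and 4 rose in Ctrl, 9 and 4 in HS, and 16 and 4 in HS+REC, with medians of -0.1, -0.1 and -0.17. The shares that fell were 40%, 30% and 53.3%, of which that in HS was near the 26.7% of all genes, and the others stand beside 22.9% and 27.3%. The share that rose was 13.3% each time, beside 26.3%, 28.1% and 26.8%. With heat, 10 fell (33.3%) and 1 rose with scramble, and 10 fell and 2 rose with siLonp1, where 17.3% and 22.1% of all genes fell. The shares that rose were 3.33% and 6.67%, beside 18.6% and 20.2%. The difference between these lists and the 38 genes was not tested.

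**Figure D5:**
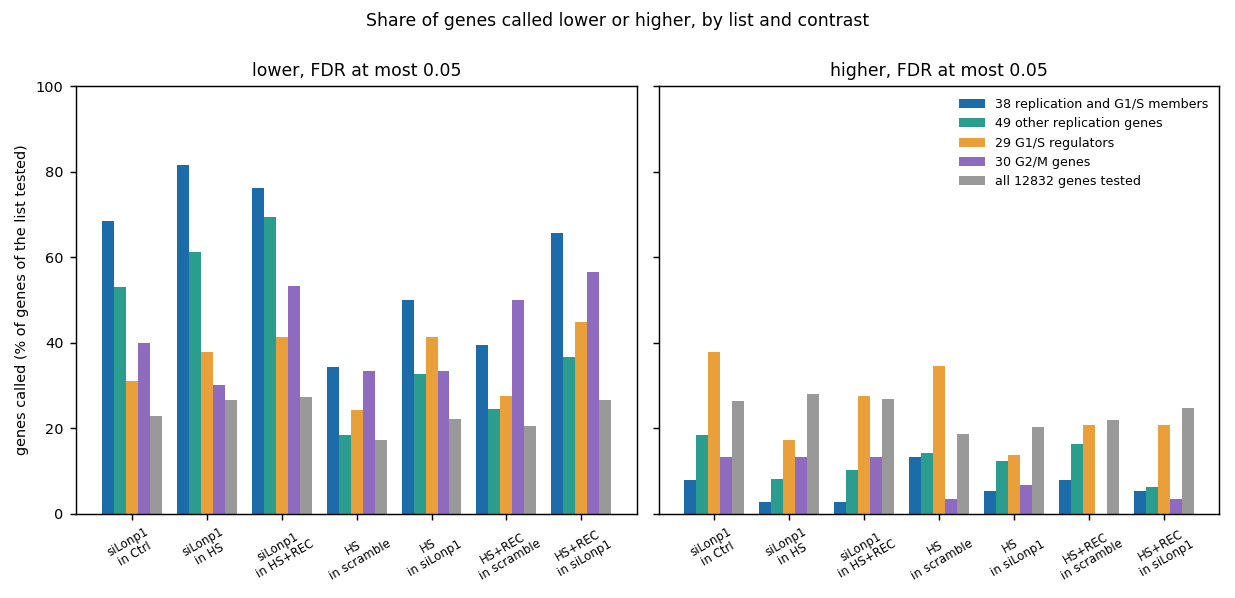
Percent of genes of each list (y axis) that passed an FDR of 0.05 as lower (left) or higher (right) in 7 comparisons (x axis), with all 12832 genes tested in grey. The 38 genes stand at 68.4%, 81.6% and 76.3% lower in the siLonp1 comparisons, beside 22.9%, 26.7% and 27.3% of all genes.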

How the data were processed

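RNA of 18 libraries of SW620 cells was analysed, 3 in each of 6 groups (Ctrl, HS and HS+REC, each with scramble siRNA or siLonp1). Per the labels and the study's methods, the authors prepared stranded mRNA libraries, aligned paired-end reads to hg38 with STAR 2.7.3a and counted them per gene with featureCounts. The deposited values are their raw counts for 26485 gene symbols, not normalized, of which 5740 had no count in any library. The annotation release, the strand setting and the handling of reads that fit several genes are not given in the sources used here, nor is the siRNA sequence used for RNAseq. Further members share exon sequence with other annotated genes, among them POLA2 and POLD1 on the same strand and TYMS on the other strand. No removal of PCR duplicates is stated, so counting error is a lower limit.

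Groups were taken from the sample labels and columns from their names. The filter required CPM above 1 in 3 or more libraries and left 12832 genes. The test was edgeR's quasi-likelihood test (version 4.0.16, R 4.3.3), with TMM factors and 1 mean for each group, fitted to the 18 libraries together. FDR is the Benjamini-Hochberg value over all genes tested, and calls were counted at 0.05 at any fold change and above a fold change of 2. The prior count of the fold changes was 0.125. SE is the standard error of the log2 fold change, and the intervals cover 95%. Levels are CPM with TMM-scaled library sizes and are compared between libraries, not between genes. Library totals are between 30815860 and 47279297, and the smallest count of a member in any library is 111. No replicate was treated as a copy of another, since the chi-square over its degrees of freedom was 3.48 to 25.8 within groups. In a test on simulated counts for the siLonp1 effect in Ctrl over 12832 genes, with 50 changed genes of each size, 46% were recovered at a log2 change of 0.3, 86% at 0.5, 98% at 1 and 96% at 2, with 5 false calls. No other genes were changed there, whereas 26.3% of genes rose and 22.9% fell in the data. The rates of recovery in the data may therefore differ.

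The members, their roles, the other gene lists and the markers were chosen with earlier results of these data known. Counts and medians are over the 38 members listed by function. Genes named are LONP1, ZNF367, members past a fold change of 2, for each comparison the 5 members that changed most among those called, the members with the highest and the lowest mean CPM of each role, and up to 4 genes of each other list by the size of their change. CDC45, E2F1, GINS2, GINS3, MCM2, MCM3, MCM6, ORC6, POLD1, RFC2, RFC4, RFC5 and the markers CDX2, LYZ and PDGFRB are also named where a count is spelled out, after their values were seen. Gene positions are those of GENCODE v44 on hg38, and promoters are those of RefSeq on GRCh38.p14. As alternatives, scaling was by RLE or by library size alone, the filter was dropped or required CPM above 1 in each of the 18 libraries, DESeq2 1.42.0 took the place of edgeR, the fit held only the groups compared or a replicate block, the FDR limit was 0.01, and single libraries were left out. Figures were drawn with matplotlib 3.10.9.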

Additional observations from a re-analysis of the deposited data

Results flagged for a closer look

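The HS effect differed between the siRNA arms by a test of the difference itself, edgeR's interaction term at a Benjamini-Hochberg FDR of 0.05, for 4 of the 38 genes. The difference, siLonp1 minus scramble on the log2 scale, was -0.681 for CDT1, -0.429 for ORC1, -0.36 for CDC6 and -0.315 for FEN1. The HS+REC effect differed in the same way for ORC1, by -0.457, and for MCM4, by -0.314. FEN1 and MCM4 are close to the limit and lost the call in 11 and 9 of the 12 fits that left out a library. FEN1 lost the call with the replicate number as a block too. CDC6 lost it without HS scramble replicate 1. LONP1 itself had an HS effect of -0.80 with siLonp1 and -0.044 with scramble, and the part of this in the differences was not tested.

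For ZNF367, each HS library lay above the Ctrl libraries with scramble and below them with siLonp1, a difference of -1.24 on the log2 scale. This gene was chosen for that pattern, and the difference was not tested.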

How the results depend on the processing

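Counts are of the 38 genes at FDR 0.05. None of the counts, medians and named genes recomputed changed from a called direction to the other under the alternatives tried. The counts of genes lower with siLonp1 stayed between 25 and 26 in Ctrl, 29 and 31 in HS and 28 and 29 in HS+REC when a library was left out. The count higher with siLonp1 in HS went from 1 to 2 with no filter on low counts. In HS+REC it went from 1 to 2 with RLE size factors, with no filter and with CPM above 1 in all 18 libraries, to 3 with DESeq2, and from 1 to 2 over fits with a library left out (2 without HS+REC siLonp1 replicate 1). The 13 genes lower in HS with scramble became 8 at FDR 0.01 and 8 to 12 with a library left out. The 15 lower in HS+REC with scramble became 23 with library size only, 5 at FDR 0.01 and 6 to 12 with a library left out. Among all genes, those lower there went from 2632 to 3906 with library size only. Against HS with scramble, the 3 lower became 7 with library size only and 3 to 5 with a library left out, most without HS scramble replicate 3. The 3 higher there became 1 with library size only, 1 with the groups compared alone and 1 at FDR 0.01. Among all genes, library size only took those lower from 1628 to 2279 and those higher from 1817 to 1297. With siLonp1, the 7 lower against HS became 3 with the groups compared alone, 3 at FDR 0.01 and 4 to 6 with a library left out, and the 4 higher became 2 to 4. The 4 genes of the interaction with HS became 7 with DESeq2, 7 with the groups compared alone, 2 at FDR 0.01 and 2 to 5 with a library left out. Among all genes, those lower in this interaction went from 179 to 317 with DESeq2. The 2 genes of the interaction with HS+REC became 1 at FDR 0.01 and 1 to 3 with a library left out. The cause of these shifts was not tested, apart from the stricter limit of FDR 0.01.

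Library size only, in place of TMM, moved the median log2 fold change of all genes to between -0.096 and -0.012 and lowered the share of higher calls among all calls, for example from 51.3% to 35% for siLonp1 in HS, except in the interaction with HS+REC, where it went from 43.3% to 46%. Equal replicate numbers are not stated to mark a shared batch, and the 45 pairs of same-numbered libraries had correlations of their deviations between -0.379 and 0.462, of which 10 were over 0.1. With the replicate number as a block, the 15 lower genes in HS+REC with scramble became 12 and the 4 of the interaction with HS became 3, with the FEN1 interaction at an FDR of 0.0545, and the other counts did not change. The smallest count of a member in any library was 111, for CCNE1, the member with the lowest level and so the widest relative counting error.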
